A study of Mus musculus with 8 samples.

Results

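Itaconate, the metabolite that activated myeloid cells divert from the tricarboxylic acid (TCA) cycle, was followed here through 9 genes that make it, move it or work on either side of it. They are Acod1, Slc13a3, Slc25a1, Aco1, Idh1, Idh2, Idh3a, Sdha and Sdhb, which were found by their symbols in both deposited tables and joined by gene identifier, out of 31406 genes in the table of both groups. The group of genes was selected from the pathway with the earlier results of these same libraries known, so the difference between the groups is given for them as a description, with the intervals and calls of the fit across all genes but no p-value, and nothing is concluded from it. All 9 passed the filter on low counts.

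The study prepared primary microglia from the striatum of wild-type newborn C57/BL6 mice and asked whether stimulation of the adenosine A3 receptor adds to blockade of the A2A receptor. All cultures were 15 days old when lipopolysaccharide (LPS, 0.01%) and interferon-γ (0.002%) were given for 48 h of activation, and ligands were added after 24, 32 and 40 h. The methods list the interferon-γ as human. According to the titles, 4 libraries received SCH 58261, an A2A receptor antagonist (A2A antagonist group), and 4 received SCH 58261 with 200 nM 2-Cl-IB-MECA, an A3 receptor agonist (dual group). The names of the count columns give the same groups as the titles, and both were followed here, while the treatment field of the labels names the agonist for the opposite 4 libraries. No label ties the libraries to separate litters or dates, and p-values measure only the spread between these libraries. Libraries of activated cells with vehicle alone carry no sample of this series and were not used here, so the effect of SCH 58261 itself was not analysed.

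Acod1 (also known as Irg1) encodes the mitochondrial enzyme that decarboxylates cis-aconitate to itaconate, and it is one of the genes most strongly induced by LPS and interferons in macrophages and microglia. Itaconate inhibits succinate dehydrogenase, for which succinate is the substrate, and modifies proteins that control inflammation and antioxidant defence. Carriers connect this metabolism to the rest of the cell: the citrate carrier Slc25a1 exports citrate from the matrix, and the sodium-coupled carrier Slc13a3 takes up succinate and other dicarboxylates, itaconate included, across the plasma membrane.

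Libraries held 38427491 to 45878639 counts with the antagonist and 32630602 to 45544451 with both ligands, and within a group each pair of libraries differed by more than counting noise (chi-square per degree of freedom from 3.80 to 9.43). The labelled cell type was checked on marker genes. The 10 microglia markers summed to between 546 and 665 CPM per 1000 bases of gene length (CPM, counts scaled to a common library size), with Csf1r and C1qa high and the homeostatic markers P2ry12 (1.67 and 2.00 CPM in the 2 groups) and Tmem119 (7.41 and 7.41 CPM) low. The 9 astrocyte markers summed to more, between 1093 and 1185 CPM per 1000 bases, and the 6 fibroblast markers to between 263 and 335. Neuronal markers summed to between 7.75 and 8.76 on that scale, with Rbfox3 at 0.146 and 0.177 CPM. RNA of microglia, astrocyte and fibroblast markers was thus present in every library, and in bulk samples fewer cells of a type and less RNA per cell cannot be told apart.

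Compared per length, Acod1 was the most abundant of the 9 transcripts and Idh3a the least. Acod1 stood at 90.8 ± 4.49 CPM per 1000 bases (SD, n = 8), above 97.5% of the genes tested, and was first of the 9 in each of the 8 libraries. Idh2 (68.2 ± 1.59, SD, n = 8) and Sdha (65.9 ± 1.22, SD, n = 8) followed, and their ranges overlapped although Idh2 was the higher in all 8 libraries. Slc25a1 came next with 54.8 ± 3.79 (SD, n = 8), with no overlap with either neighbour. Sdhb (35.1 ± 1.495, SD, n = 8) and Idh1 (31.8 ± 1.09, SD, n = 8) overlapped in range, and Sdhb was the higher in 7 of 8 libraries. Aco1 lay apart from both neighbours at 18.9 ± 0.305 (SD, n = 8). Slc13a3 (13.0 ± 1.33, SD, n = 8) and Idh3a (11.8 ± 0.495, SD, n = 8) closed the order and also overlapped, with Slc13a3 the higher in 6 of 8 libraries. Idh3a, the lowest of the 9, still exceeded 75.2% of the genes tested. The ranks ran from 1 to 9 in the same order of means in the authors' own length-scaled values (FPKM). Those values divide the same counts by the same lengths, so the agreement is no separate check. The length is that of all annotated exons of a gene together. Without scaling to length, Sdha (275.1 CPM with the antagonist and 268.7 CPM with both ligands) stood above Acod1 (234.7 and 241.4 CPM).

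**Figure D1:**
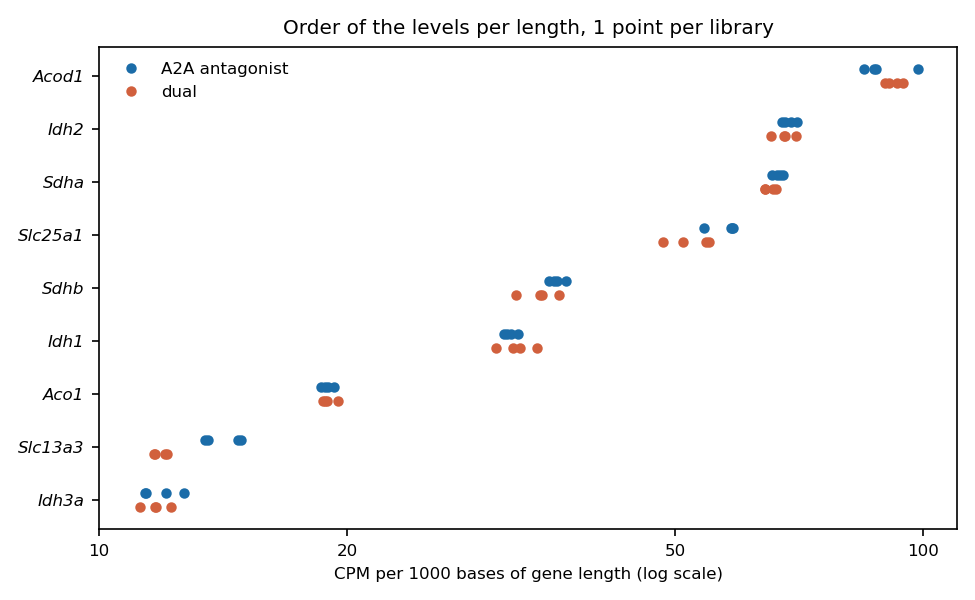
Levels of the 9 genes per length, in CPM per 1000 bases of gene length on a log axis, with 1 point per library and the genes ordered by their mean over 8 libraries. Acod1 lies above all others, and the points of the A2A antagonist and dual groups are separated for Slc13a3, from 13.4 to 14.9 against 11.6 to 12.1.

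The groups of 4 libraries were then compared gene by gene in a fit across all 18756 genes with enough counts. Across these, edgeR (quasi-likelihood F test, Benjamini-Hochberg adjustment, threshold 0.05) called 39 genes (0.208%), with 9 higher and 30 lower where both ligands were present, and an unadjusted p-value under 0.05 was reached by 2400 (12.8%). Of the 9 itaconate and TCA genes 1, Slc13a3, was among the 39, and since the genes were chosen with this comparison known nothing is read from that count. Likewise 1 of 9, again Slc13a3, had no overlap between the groups, where 7.42% of all genes tested had none. The median log2 fold change (dual over A2A antagonist) was -0.019 over the 9 genes and 0.0038 over all genes tested, and the median absolute value was 0.034 against 0.072. The 9 genes had 1856 to 12477 counts per library, whereas all genes tested include scarcer, less precisely measured ones. Their absolute median was not compared with that of genes of like depth.

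**Figure D2:**
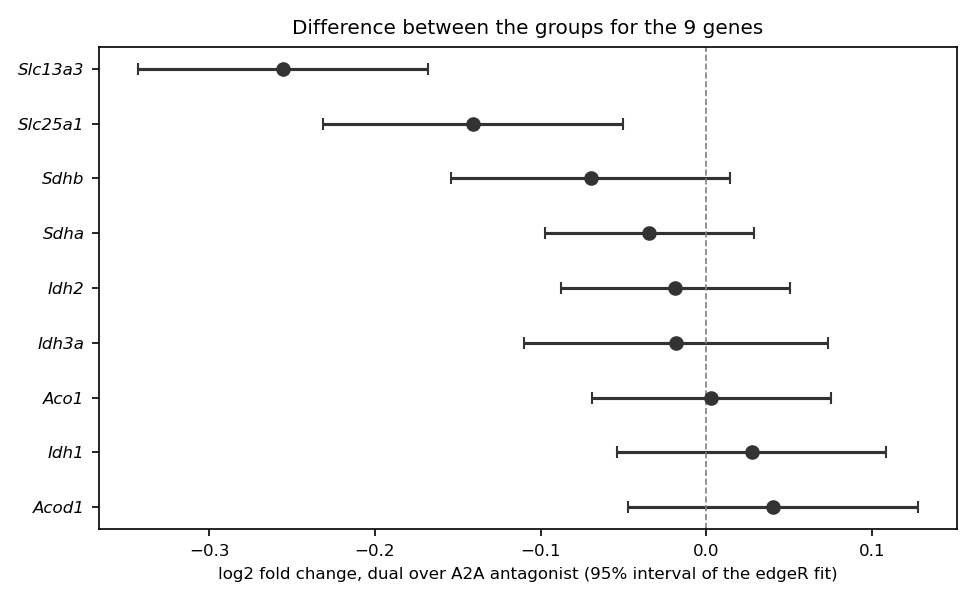
Log2 fold change of the dual over the A2A antagonist group for the 9 genes, as points with 95% confidence intervals from the fit across all genes (4 libraries per group). Slc13a3 (-0.26) and Slc25a1 (-0.14) have intervals below 0, and the other 7 intervals include 0.

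Acod1 (ENSMUSG00000022126, GRCm38 chromosome 14, 103046977 to 103056573, plus strand) had 222.0, 228.7, 258.5 and 229.7 CPM in replicates 1 to 4 of the A2A antagonist group. In the dual group it had 248.0, 238.2, 243.7 and 235.6 CPM. The groups overlapped, and the highest value belonged to replicate 3 of the A2A antagonist group. The mean was 234.7 ± 16.2 CPM (SD, n = 4) with the antagonist against 241.4 ± 5.56 CPM (SD, n = 4), a log2 fold change of 0.04 (SE 0.04, 95% interval -0.05 to 0.13), which was 0.09 without replicate 3 of the antagonist libraries and 0.01 without their replicate 1. These values rest on 8091 to 11187 counts per library. Relative to the TCA genes per length, Acod1 was 7.55 ± 0.628 times Idh3a (SD, n = 4) with the antagonist and 7.87 ± 0.448 times (SD, n = 4) with both ligands.

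The stretches upstream of Acod1 and Slc13a3 are shown because these are the most abundant of the 9 genes per length and the one whose groups were apart. They come from RefSeq (GRCm38.p6), end where the first annotated exon begins, and read 5′ to 3′ on the strand of the gene. Acod1 lies at chr14:103046762-103046976 (plus strand, 215 bases) and Slc13a3 at chr2:165473231-165473447 (minus strand, 217 bases). Capitals mark the matches to the motifs searched, a CCAAT box read on the opposite strand in Acod1 and an antioxidant response element core in Slc13a3.
Acod1: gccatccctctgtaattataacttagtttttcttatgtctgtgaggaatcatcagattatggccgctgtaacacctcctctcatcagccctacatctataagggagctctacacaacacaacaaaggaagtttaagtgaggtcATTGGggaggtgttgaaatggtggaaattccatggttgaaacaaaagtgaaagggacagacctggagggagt
Slc13a3: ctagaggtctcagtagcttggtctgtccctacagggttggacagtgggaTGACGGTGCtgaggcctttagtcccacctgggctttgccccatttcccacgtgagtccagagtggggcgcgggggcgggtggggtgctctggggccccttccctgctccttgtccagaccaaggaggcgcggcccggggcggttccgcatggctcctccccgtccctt

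The 8 of 9 genes with an upstream window in RefSeq were compared over the 250 bases before the RefSeq start, on both strands. The deposited gene coordinates begin earlier than that start for 7 of the 8, so that 21 (Idh1) to 184 (Aco1) bases of those windows lie inside the gene, 35 of them for Acod1 and 33 for Slc13a3, and for Slc25a1 0. Acod1 had 2 CpG dinucleotides in its window and 44.4% G and C, whereas the other 7 genes had 9 to 25 CpG and 59.2% to 70% G and C. The TATA box (TATAAA, in 12.4% of 32851 windows of this length) was found for Acod1 and for no other of the 8, and in Acod1 all 6 of its bases lie among the 35 inside the first annotated exon, past the stretch printed above. CCAAT (in 33.8% of windows) was found for Acod1, Slc25a1, Idh1, Idh2, Sdha and Sdhb. The antioxidant response element core TGACNNNGC (10.2% of windows) was found for Slc13a3 alone. The NF-kB consensus (GGG, A or G, any 2 bases, C or T, C or T, CC, in 7.25% of windows) was found for Slc25a1, Idh2 and Sdhb. Shorter or looser forms of the NF-kB site were not searched, so their absence elsewhere is not shown. Neither the interferon-stimulated response element core (GAAA, any 2 bases, GAAA, in 2.98% of windows) nor the gamma-activated site TTCNNNGAA (7.02%) was matched in these windows. Looser or shorter forms of these 2 motifs were not searched either, so their absence is not shown, including in the Acod1 stretch printed above. These matches describe the letters and are not evidence of binding.

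Slc13a3 (ENSMUSG00000018459, GRCm38 chromosome 2, 165405028 to 165473230, minus strand) was the gene of the 9 with the widest separation. Its values were 70.75, 76.93, 70.11 and 77.46 CPM in the A2A antagonist group. In the dual group they were 61.00, 62.68, 60.72 and 63.03 CPM. Each dual library lay below each A2A antagonist library, with a gap of 7.08 CPM between the groups, and the dual libraries were the less spread (coefficient of variation 1.89% against 5.31%). The mean was 73.8 ± 3.92 CPM (SD, n = 4) with the antagonist against 61.9 ± 1.17 CPM (SD, n = 4), so that the level was 1.19-fold higher with the antagonist alone. The log2 fold change was -0.26 (SE 0.04, 95% interval -0.34 to -0.17), from 1990 to 3519 counts per library. Slc13a3 no longer passed an adjusted p-value of 0.05 when replicate 2 or 4 with the antagonist, or replicate 3 with both ligands, was left out, where its log2 fold change was -0.24, -0.23 and -0.25. Markers of other cell types are given beside it because this carrier is known from astrocytes. Over the 9 astrocyte markers 6 had a log2 fold change above 0 and 3 below, none was called by edgeR (3 at an unadjusted p-value under 0.05), and their summed level was 6256 to 6542 CPM with the antagonist and 6352 to 6799 CPM with both ligands. Over the 10 microglia markers 5 were above 0 and 5 below, with a median of 0.02. C1qa was called lower (-0.24, SE 0.04), and Csf1r had 0.11 (SE 0.03) without overlap and was not called. Aif1 had -0.21 (SE 0.06) with overlap and was not called. These were the 3 microglia markers at an unadjusted p-value under 0.05 in edgeR. The microglia markers summed to 1131 to 1199 CPM and 1086 to 1157 CPM. All 5 tested fibroblast markers were above 0, with a median of 0.11, none was called by edgeR (3 at an unadjusted p-value under 0.05), and the list summed to 2183 to 2458 CPM and 2185 to 2791 CPM. The part of cell composition in the Slc13a3 difference was not tested. The related carriers of the plasma membrane were scarce: Slc13a5, a citrate carrier, had 0.608 and 0.674 CPM in the 2 groups, and Slc13a2, another dicarboxylate carrier, had 0.0465 and 0.0997 CPM and failed the filter.

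**Figure D3:**
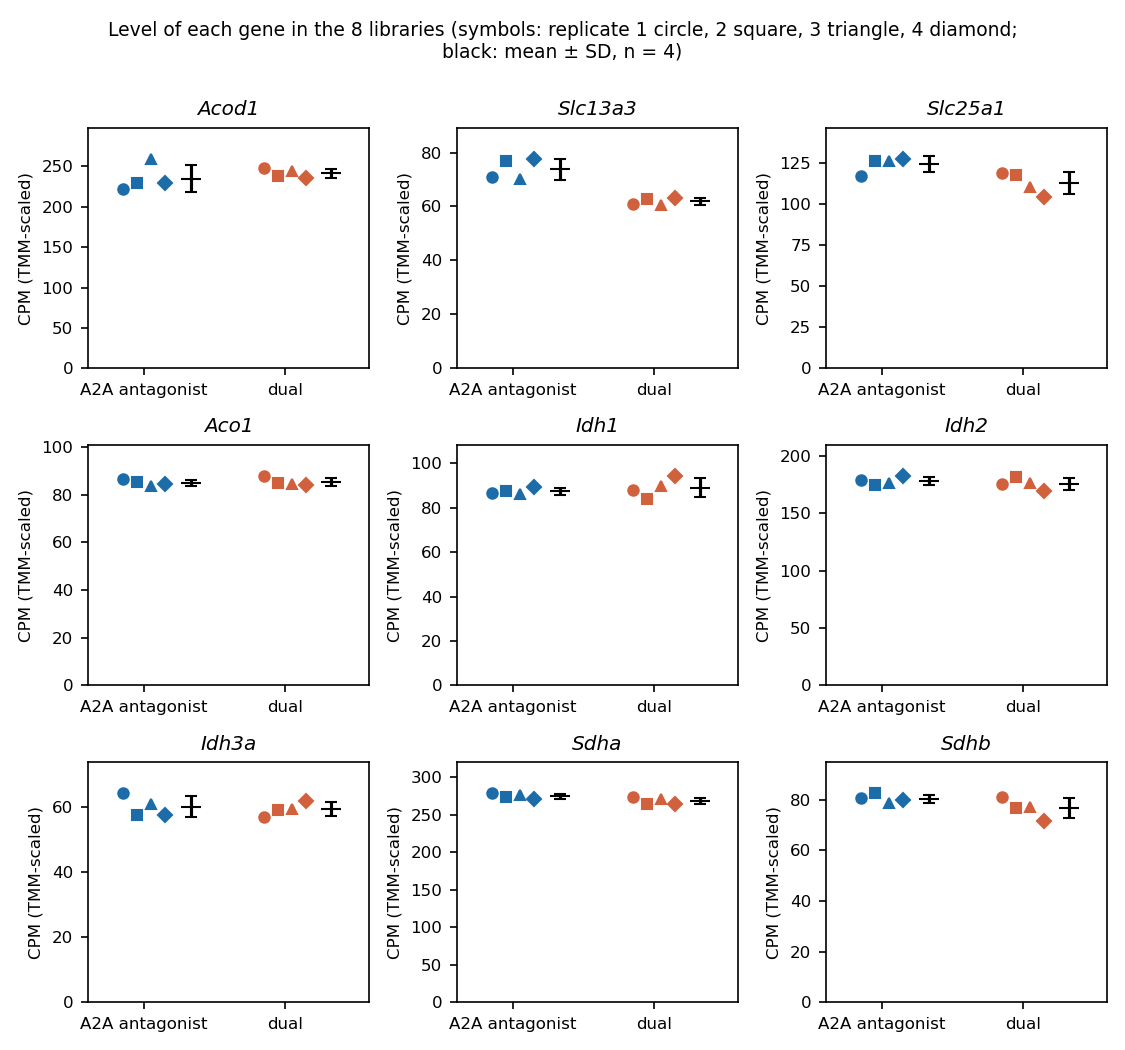
CPM scaled with TMM factors for each of the 9 genes in each library, with A2A antagonist libraries in blue and dual libraries in orange, replicates by symbol, and mean ± SD of 4 libraries in black (axes start at 0). Slc13a3 is the gene whose groups do not overlap.

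Slc25a1 (ENSMUSG00000003528, chromosome 16, 17925223 to 17928219, minus strand), which exports citrate to the cytosol, was the next of the 9 by size of difference. It had 117.1, 126.5, 126.6 and 127.3 CPM with the antagonist and 119.0, 117.8, 110.4 and 104.5 CPM with both ligands. The groups overlapped through replicate 1 of the A2A antagonist group, which lay below 2 of the dual libraries. The mean was 124.4 ± 4.85 CPM (SD, n = 4) with the antagonist against 112.9 ± 6.77 CPM (SD, n = 4), and the log2 fold change was -0.14 (SE 0.04, 95% interval -0.23 to -0.05). Acly, the cytosolic enzyme that splits exported citrate, had 217.1 CPM and 210.9 CPM, and the ratio of Slc25a1 to Acly per length was 1.40 ± 0.0636 (SD, n = 4) and 1.31 ± 0.0545 (SD, n = 4), with overlapping ranges (1.31 to 1.45 and 1.23 to 1.36).

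Aco1 (ENSMUSG00000028405, chromosome 4, 40143081 to 40198338, plus strand), the cytosolic aconitase that acts as an iron regulatory protein when its iron-sulphur cluster is lost, had the smallest difference of the 9. It ranged from 83.65 to 86.71 CPM with the antagonist and from 83.96 to 87.67 CPM with both ligands, and its log2 fold change was 0.0031 (SE 0.03, 95% interval -0.07 to 0.08). Of the isocitrate dehydrogenases, Idh1 is the cytosolic and Idh2 the mitochondrial NADP-dependent enzyme, and Idh3a is the catalytic subunit of the NAD-dependent enzyme of the cycle. Idh1 (ENSMUSG00000025950, chromosome 1, 65158616 to 65186500, minus strand) had 86.66, 87.53, 85.97 and 89.28 CPM with the antagonist, against 87.94, 84.08, 89.89 and 94.11 CPM with both ligands, where the lowest and the highest value of the 8 both occurred. Idh2 (ENSMUSG00000030541, chromosome 7, 80094846 to 80115392, minus strand) averaged 177.7 ± 3.38 CPM (SD, n = 4) with the antagonist against 175.4 ± 4.96 CPM (SD, n = 4). Idh3a (ENSMUSG00000032279, chromosome 9, 54586334 to 54604661, plus strand) averaged 60.2 ± 3.14 CPM (SD, n = 4) against 59.4 ± 2.10 CPM (SD, n = 4). All 3 overlapped between the groups, with log2 fold changes of 0.03 (95% interval -0.05 to 0.11) for Idh1, -0.019 (-0.09 to 0.05) for Idh2 and -0.018 (-0.11 to 0.07) for Idh3a. Per length, Idh2 was 2.18 ± 0.0324 times Idh1 (SD, n = 4) with the antagonist and 2.12 ± 0.158 times (SD, n = 4) with both ligands. Idh3a was lower than its partner subunits in every library, at 0.381 and 0.399 times Idh3b and 0.443 and 0.456 times Idh3g in the 2 groups.

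Sdha (ENSMUSG00000021577, chromosome 13, 74322254 to 74350280, minus strand) and Sdhb (ENSMUSG00000009863, chromosome 4, 140961203 to 140979193, plus strand) encode the flavoprotein and the iron-sulphur subunit of succinate dehydrogenase, the enzyme that itaconate inhibits. Sdha had 278.8, 274.3, 276.7 and 270.7 CPM with the antagonist and 273.5, 265.0, 271.3 and 264.9 CPM with both ligands, the smallest spread of the 9 (coefficient of variation 1.27% and 1.63%, near the 0.923% and 0.971% that counting alone gives). Its log2 fold change was -0.03 (SE 0.03, 95% interval -0.10 to 0.03). Sdhb had 80.54, 82.43, 78.62 and 79.88 CPM with the antagonist and 80.92, 76.82, 77.06 and 71.71 CPM with both ligands. Replicate 4 of the dual group was the lowest, and the groups overlapped through replicate 1 of the dual group. The log2 fold change of Sdhb was -0.07 (SE 0.04, 95% interval -0.15 to 0.01). Sdha exceeded Sdhb per length by 1.86 ± 0.0453 times (SD, n = 4) and 1.91 ± 0.0735 times (SD, n = 4).

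Beyond these genes, 7 lists of the surrounding pathway held 61 genes, of which 59 passed the filter. None of the 59 was called by edgeR, the DESeq2 Wald test called 1 (Irf1), and in edgeR 11 (18.6%) reached an unadjusted p-value under 0.05, against 12.8% of all genes tested. Log2 fold changes were below 0 for 41 and above 0 for 18, where 48.5% of all genes tested were below 0, and the groups did not overlap for 8 of the 59 (13.6%), against 7.42% of all genes tested. Genes with more counts are measured more precisely, and the 59 were not compared with genes of like level. These shares are therefore not read as particular to the lists.

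The other TCA cycle enzymes lay mostly on the lower side without a call. Of 14, 13 had a log2 fold change below 0, with a median of -0.06 and a range from -0.10 to 0.03, 3 reached an unadjusted p-value under 0.05, and none was called by edgeR or DESeq2. The lowest were Mdh2, the mitochondrial malate dehydrogenase, with 158.1 CPM and 147.9 CPM (log2 fold change -0.10, SE 0.04, adjusted p-value 0.274 in edgeR), and Sdhd, a membrane anchor of succinate dehydrogenase, with 81.6 CPM and 76.9 CPM (-0.09, SE 0.04, adjusted p-value 0.324 in edgeR). At the other end were Ogdh, a subunit of the 2-oxoglutarate dehydrogenase complex, at 0.03 (SE 0.04), and Dlst, another subunit of that complex, at -0.02 (SE 0.03). The summed level of the 14 enzymes was 1527 to 1552 CPM with the antagonist and 1465 to 1498 CPM with both ligands, ranges that did not overlap, and no test was made of this sum. The 14 enzymes were measured in the same libraries and are not independent observations. They were not compared with other genes of like level, so the lower side is not shown to be particular to the cycle. The 4 assembly factors of succinate dehydrogenase were also all below 0, with a median of -0.06, from -0.13 for Sdhaf3 to -0.06 for Sdhaf1. None of the 4 had an unadjusted p-value under 0.05, and none was called by edgeR or DESeq2.

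Of 12 genes of pyruvate entry into the cycle 9 were below 0, with a median of -0.01, and none was called by edgeR (0 at an unadjusted p-value under 0.05) or by DESeq2. The extremes were Pcx, pyruvate carboxylase, at -0.08 (SE 0.05) and Pdhx, a component of the pyruvate dehydrogenase complex, at -0.06 (SE 0.04), against Mpc1, a subunit of the mitochondrial pyruvate carrier, at 0.08 (SE 0.08) and Pdha1, a pyruvate dehydrogenase subunit, at 0.05 (SE 0.03). Among the 10 tested genes of citrate, malate and aspartate handling 7 were below 0, with a median of -0.07, 2 reached an unadjusted p-value under 0.05, and edgeR and DESeq2 called none. Slc25a13, an aspartate-glutamate carrier, had -0.12 (SE 0.09) and Got1, the cytosolic aspartate aminotransferase, -0.10 (SE 0.04), while the close relative Slc25a12 had 0.02 (SE 0.04) and Slc13a5 had 0.15 (SE 0.26).

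Genes listed for the breakdown or export of itaconate or for the response to it were read for a difference downstream of Acod1. Of the 4 tested genes in the list of breakdown and export, Auh had -0.07 (SE 0.04) and the exporter Abcg2 had 0.0044 (SE 0.08). Clybl, which acts on a coenzyme A derivative of itaconate, had -0.01 (SE 0.08). Mut, methylmalonyl-CoA mutase, was in that list but neither breaks down nor exports itaconate, and had 0.04 (SE 0.04). None of these 4 had an unadjusted p-value under 0.05 or a call by either tool. In the list of genes that respond to itaconate or to the antioxidant factor Nrf2, 9 of 11 were above 0, with a median of 0.03 (0.0020 without replicate 3 of the dual libraries), 3 reached an unadjusted p-value under 0.05, and none was called by edgeR or DESeq2. Slc7a11, the cystine transporter, had 434.3 CPM and 499.1 CPM (log2 fold change 0.20, SE 0.06, adjusted p-value 0.145 in edgeR), and Srxn1, sulfiredoxin, had 103.1 CPM and 113.0 CPM (0.13, SE 0.04, adjusted p-value 0.165 in edgeR). Srxn1 did not overlap between the groups. Nfkbiz, an itaconate-sensitive regulator of secondary NF-kB targets, had -0.05 (SE 0.03), and Keap1, the inhibitor of Nrf2, had -0.03 (SE 0.05). Nfkbiz (192.2 to 195.2 CPM with the antagonist, 184.0 to 190.6 CPM with both ligands) did not overlap either. The same held for Auh (35.15 to 36.16 CPM against 33.38 to 34.33 CPM), and both lay lower with both ligands.

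All 4 known regulators of Acod1 transcription that were listed had log2 fold changes below 0, with a median of -0.10. In edgeR 3 of the 4 reached an unadjusted p-value under 0.05 and none was called, and the groups did not overlap for 2 of them. Irf1, an interferon-induced factor, had 127.5 to 138.3 CPM with the antagonist and 118.0 to 122.0 CPM with both ligands, with no overlap. Its log2 fold change of -0.17 (SE 0.04) lay just outside the threshold, at an adjusted p-value of 0.0557 in edgeR. The NF-kB subunits Rela and Nfkb1 had -0.08 (SE 0.04) and -0.03 (SE 0.03). Acod1 itself, at 0.04, stood on the other side of 0 with an interval that includes 0.

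**Figure D4:**
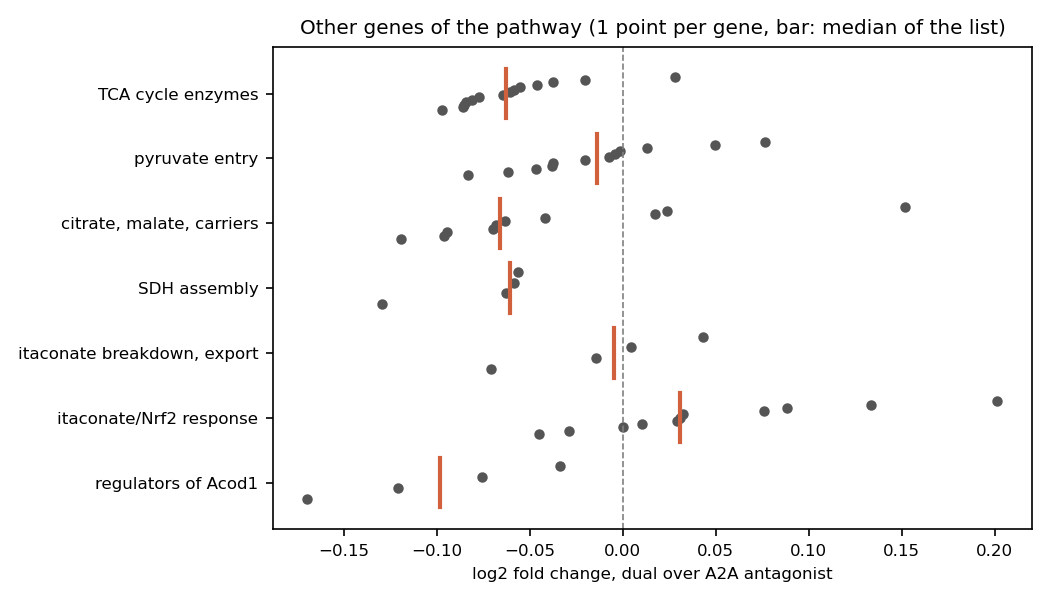
Log2 fold change of the dual over the A2A antagonist group for the 59 tested genes of the 7 surrounding lists, with 1 point per gene and an orange bar at the median of each list. The medians run from -0.10 for the regulators of Acod1 to 0.03 for the itaconate and Nrf2 response genes, and edgeR called none of the genes.

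Variation within the groups was also described. After subtraction of the group means, the 36 pairs of the 9 genes had Pearson correlations over 8 libraries from -0.81 (Slc25a1 with Idh3a) to 0.76 (Aco1 with Sdhb). Among 11061 other genes (mean log2 CPM 3 or more), those most like Acod1 within the groups were Smarcd2 (r = 0.963), Gnb1 (r = 0.959) and Camsap1 (r = 0.958), and those most like Slc13a3 were Rpl3 (r = 0.992), Rpp25l (r = 0.974) and Plxna2 (r = 0.967). Values over 0.9 were reached by 20 genes for Acod1 and by 59 for Slc13a3, and all points share the depth of the same 8 libraries. With 8 libraries and 11061 genes, values this high can arise without any relation between genes. The number to be expected in that case was not determined, so nothing is concluded from these counts or names.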

How the data were processed

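RNA was sequenced in 8 libraries from primary microglia cultures. The authors aligned paired-end reads with Hisat2 to an Ensembl mouse genome (mm10 in the submitters' processing notes) and counted reads per gene with featureCounts 1.5.0-p3. The deposited counts are raw, per library and not pooled. The deposited FPKM values divide these counts by the gene length given in the table, and were used only to repeat the order of levels. Whether the strand was used in counting is not given in the sources used here. In GENCODE M21 (GRCm38) the exons of the 9 genes share 0 bases with other genes, and at most 0.0192% of the 31-base words of any of them occur elsewhere. The deposited columns of fold changes and p-values hold the authors' comparisons and were not used, nor were 9 columns of 3 libraries that match no sample of the series. Counts of the A2A antagonist libraries were equal in both tables (0 differing values over 30302 genes).

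Genes were filtered with filterByExpr (minimum count 10), scaled with TMM factors and tested in edgeR 4.0.16 (R 4.3.3) with the quasi-likelihood F test, two-sided, without covariates, and with Benjamini-Hochberg adjustment over all genes. CPM are TMM-scaled, standard errors derive from the F statistic, and depth limits the 9 genes to a counting error of 0.923% to 2.07%. The scripts were tested on simulated data. Alternatives were DESeq2 1.42.0, its size factors in edgeR, no filter or a minimum count of 30, a replicate block, and leaving out each library.

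The 9 genes and the lists were chosen with earlier results of these data known. Named were the 9 genes, in each list those called or otherwise the 2 highest and 2 lowest log2 fold changes, and the 3 genes most correlated with Acod1 and with Slc13a3 within groups (log2 CPM, prior count 2). Acly, Idh3b, Idh3g, Slc13a2 and single marker genes were named after their values were seen. Some genes of the lists that the rule names are not reported here.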

Additional observations from a re-analysis of the deposited data

Results flagged for a closer look

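Of the 37 genes named among the 9 and the lists, each group of 4 libraries was examined for a library apart from the other 3 (gap over range, above Dixon's 95% critical value), and 3 of 74 groups had one, where chance flags about 1 in 20. Slc25a1 had 117.1 CPM in replicate 1 of the A2A antagonist group and 126.5 to 127.3 CPM in the other 3 (ratio 0.925). Irf1 had 122.0 CPM in replicate 1 of the dual group and 118.0 to 118.6 CPM in the other 3 (ratio 0.854). Rela had 139.1 CPM in replicate 3 of the A2A antagonist group and 145.5 to 146.7 CPM in the other 3 (ratio 0.841).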

How the results depend on the processing

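The 39 calls became 366 (113 higher, 253 lower) without the filter, 369 (115 higher, 254 lower) with the DESeq2 Wald test and 17 (3 higher, 14 lower) with the replicate block, and ranged from 0 to 172 (0 to 46 higher, 0 to 126 lower) when 1 library was left out. The count was 0 without A2A antagonist replicate 4 or dual replicate 3 (1802 and 2092 genes at an unadjusted p-value under 0.05), 5 and 6 without A2A antagonist replicates 2 and 3, and 172 without its replicate 1. The log2 fold change of Slc13a3 ranged from -0.28 to -0.23 when 1 library was left out. In the lists, 1 response gene (Slc7a11) was called without the filter, and 1 regulator of Acod1 (Irf1) without the filter, with DESeq2 or without A2A antagonist replicate 1, so that the range was 0 to 1 for the regulators. The causes were not tested. Leaving out 1 library turned the sign of the near-zero log2 fold changes of Aco1 (-0.01 to 0.01), Idh1 (-0.0010 to 0.05) and Idh3a (-0.04 to 0.01), and of the breakdown and export list (median -0.05 to 0.02). The range was 0.01 to 0.09 for Acod1, -0.17 to -0.11 for Slc25a1, -0.04 to -0.0015 for Idh2, -0.04 to -0.03 for Sdha and -0.10 to -0.04 for Sdhb. List medians ranged from 0.0020 (without dual replicate 3) to 0.05 (without dual replicate 1) for the response genes, from -0.09 (without dual replicate 4) to -0.04 (without dual replicate 2) for the assembly factors, from -0.08 to -0.04 (without A2A antagonist replicates 1 and 4) for citrate and malate handling and from -0.03 to -0.0033 (without A2A antagonist replicate 3 and dual replicate 3) for pyruvate entry. No other of the 9 genes changed sign when 1 library was left out, and none changed rank in level. Same-numbered libraries did not deviate together (correlations -0.2 to -0.0482, other pairs -0.147 to 0.215). A weak pairing would not be seen in this way, and no label says whether the numbers pair the samples.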
